A study of Mus musculus with 4 samples.

Results

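The shortest contacts that H3K4me3 HiChIP resolved in mouse macrophages between a promoter and DNA outside protein-coding genes numbered 6622 bin pairs. Each pair joined a 5-kb bin with the start site (TSS) of a protein-coding transcript to a bin that overlapped no protein-coding gene body and held no such TSS, with at most 50 kb between the starts of the bins. They were 2.79% of all 237102 listed interactions (95% Wilson interval 2.73 to 2.86%), 12.8% of the 51540 listed promoter to intergenic contacts and 18.4% of the 36064 listed pairs of any kind within this distance. Such intervals take in counting error alone, and adjacent bin pairs are not independent of each other. Seen from the strand of the gene, the partner bin lay upstream of the TSS in 4557 pairs and downstream in 1540. A further 525 pairs belonged to promoter bins with TSSs on both strands and were counted apart.

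The cells were bone marrow-derived macrophages (BMDMs) of the inbred strain C57BL/6J, differentiated for 7 days with M-CSF, the growth factor that turns marrow progenitors into macrophages. There were 2 basal samples, which were left untreated, and 2 samples that received 20 ng/mL of recombinant mouse interleukin-4 (IL-4), a cytokine of the type 2 immune response, for 24 h. The interactions were called on the reads of all 4 samples together, and 1 observed and 1 expected count stand for each bin pair. Basal and IL-4-treated cells could therefore not be compared, no replicate error exists for any value, and sequencing depth per sample is not known.

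HiChIP ligates DNA ends that lie close together in the fixed nucleus and then enriches the ligated fragments with an antibody. H3K4me3 marks the nucleosomes around the TSS of active genes, so the assay reports mainly what active promoters touch. The intergenic DNA next to a promoter can hold enhancers, which bind transcription factors and raise transcription of a gene from a distance, but it is also close to the promoter simply along the chromosome, and the caller's expected count is meant to account for that proximity. In macrophages, enhancers are known to be bound by PU.1, C/EBP, AP-1 and RUNX factors, and by STAT6 after IL-4.

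Sequences of 101 bases from the partner bins of the strongest contacts and of selected macrophage and IL-4 genes are given first, since these bins are the intergenic DNA that the promoters reached. The capitals mark the match of the named motif that lies nearest to the middle of the bin, and all windows are printed 5′ to 3′ on the plus strand (mm10). Matches are descriptions of letters and not binding sites. The motifs were TGANTCA for AP-1, GAGGAAGT for PU.1, AACCACA for RUNX and TTC and GAA with any 4 bases between them for STAT6, each searched on both strands. AP-1 and RUNX letters occur in most 5-kb bins of the genome, with 78.4% and 70.2% of all bins holding at least 1 match. STAT6 letters were in 78.6% of all bins and PU.1 letters in 26.8%.
Lmna, PU.1, chr3:88511545-88511645: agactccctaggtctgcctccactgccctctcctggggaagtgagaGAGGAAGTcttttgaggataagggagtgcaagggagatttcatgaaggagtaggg
Lmna, AP-1, chr3:88512396-88512496: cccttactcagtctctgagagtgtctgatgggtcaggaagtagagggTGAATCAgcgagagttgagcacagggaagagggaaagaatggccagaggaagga
Ppp1r9b, AP-1, chr11:94982990-94983090: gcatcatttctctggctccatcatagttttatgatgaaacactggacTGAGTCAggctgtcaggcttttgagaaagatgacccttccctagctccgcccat
Ggta1, AP-1, chr2:35501480-35501580: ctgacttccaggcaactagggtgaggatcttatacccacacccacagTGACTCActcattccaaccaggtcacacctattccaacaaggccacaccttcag
Ezr, AP-1, chr17:6820897-6820997: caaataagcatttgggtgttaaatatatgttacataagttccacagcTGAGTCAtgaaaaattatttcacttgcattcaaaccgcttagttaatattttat
Ezr, RUNX, chr17:6822429-6822529: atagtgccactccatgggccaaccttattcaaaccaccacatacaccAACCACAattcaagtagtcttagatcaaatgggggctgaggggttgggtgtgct
Hnrnpll, RUNX, chr17:80113021-80113121: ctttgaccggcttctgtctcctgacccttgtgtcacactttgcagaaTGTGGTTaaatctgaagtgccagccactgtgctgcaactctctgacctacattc
Pcbp1, AP-1, chr6:86477056-86477156: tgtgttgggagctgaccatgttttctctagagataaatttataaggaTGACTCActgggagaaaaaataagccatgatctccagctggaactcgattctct
Pcbp1, STAT6, chr6:86477945-86478045: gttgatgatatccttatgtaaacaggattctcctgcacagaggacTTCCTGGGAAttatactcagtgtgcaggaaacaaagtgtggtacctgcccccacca
Tob2, AP-1, chr15:81831025-81831125: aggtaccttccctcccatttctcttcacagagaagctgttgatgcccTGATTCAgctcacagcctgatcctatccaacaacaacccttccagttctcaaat
Txnip, AP-1, chr3:96567548-96567648: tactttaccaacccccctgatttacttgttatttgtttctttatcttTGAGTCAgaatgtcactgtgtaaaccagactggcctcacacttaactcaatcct
Spi1, RUNX, chr2:91078375-91078475: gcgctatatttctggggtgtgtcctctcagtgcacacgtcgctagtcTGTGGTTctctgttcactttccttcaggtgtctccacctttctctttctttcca
Sirpa, PU.1, chr2:129549621-129549721: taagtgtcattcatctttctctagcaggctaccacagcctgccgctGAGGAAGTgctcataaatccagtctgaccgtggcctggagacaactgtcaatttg
Sirpa, AP-1, chr2:129546973-129547073: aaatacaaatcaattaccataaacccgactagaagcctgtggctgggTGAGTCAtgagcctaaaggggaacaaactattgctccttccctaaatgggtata
Il4ra, PU.1, chr7:125503859-125503959: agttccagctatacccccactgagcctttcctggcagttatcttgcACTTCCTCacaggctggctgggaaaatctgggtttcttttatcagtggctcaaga
Arg1, STAT6, chr10:24944066-24944166: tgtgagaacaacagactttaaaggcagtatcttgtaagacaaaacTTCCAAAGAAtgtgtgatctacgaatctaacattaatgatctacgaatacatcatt
Slc7a2, PU.1, chr8:40849668-40849768: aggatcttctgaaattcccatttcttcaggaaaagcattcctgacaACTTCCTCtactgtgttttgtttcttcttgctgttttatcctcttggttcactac

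The PU.1 matches in the Il4ra and Slc7a2 windows and the RUNX matches in the Hnrnpll and Spi1 windows read on the minus strand. Their capitals therefore show the reverse complement of the motif. Promoters at the other end of 3 leading contacts are shown beside them, as RefSeq gives them for GRCm38.p6, from 250 bases before the start to 50 after it on the strand of the gene, with the start base in capitals. Pcbp1 and Ggta1 lie on the minus strand and Txnip on the plus strand. The GC content was 63.7% at Pcbp1 and 65.3% at Txnip, with 32 and 24 CpG dinucleotides, whereas the Ggta1 promoter had 46.7% and 8. The intergenic partner bin of Ggta1 40 kb upstream had a GC content of 49.6%, above that of its promoter window.
Pcbp1 promoter, chr6:86526140-86526439: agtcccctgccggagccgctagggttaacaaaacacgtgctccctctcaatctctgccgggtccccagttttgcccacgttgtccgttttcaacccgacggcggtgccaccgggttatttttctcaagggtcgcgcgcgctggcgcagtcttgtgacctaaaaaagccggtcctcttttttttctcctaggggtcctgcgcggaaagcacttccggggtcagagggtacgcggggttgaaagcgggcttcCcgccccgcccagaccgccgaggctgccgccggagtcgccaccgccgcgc
Txnip promoter, chr3:96557707-96558006: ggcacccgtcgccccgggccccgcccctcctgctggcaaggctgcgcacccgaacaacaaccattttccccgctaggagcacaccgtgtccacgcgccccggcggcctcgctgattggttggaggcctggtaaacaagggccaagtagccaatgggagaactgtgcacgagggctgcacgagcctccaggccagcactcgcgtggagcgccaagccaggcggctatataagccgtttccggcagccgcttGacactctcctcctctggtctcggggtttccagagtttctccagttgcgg
Ggta1 promoter, chr2:35461400-35461699: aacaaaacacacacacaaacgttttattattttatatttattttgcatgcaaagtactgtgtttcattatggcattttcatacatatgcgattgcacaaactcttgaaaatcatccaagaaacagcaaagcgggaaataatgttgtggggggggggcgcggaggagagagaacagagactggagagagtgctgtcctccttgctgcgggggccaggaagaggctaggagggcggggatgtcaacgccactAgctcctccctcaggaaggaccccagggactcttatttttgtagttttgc

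The contacts were densely covered and modestly enriched. Observed counts of paired reads ranged from 8 to 1051 with a median of 146 (quartiles 95 and 227), and the median expected count was 56.0. The ratio of observed to expected had a median of 2.50, with quartiles of 2.21 and 2.98, and the lowest ratio was 2 because the list begins there. Medians of the 19 autosomes lay between 2.39 and 2.57 (SD 0.0548). A ratio of at least 4 was reached by 389 contacts (5.87%) and a ratio of at least 5 by 101. The 44918 listed promoter to intergenic contacts beyond 50 kb had a median count of 26 at a median distance of 255 kb, but a higher median ratio of 3.31. Listed near contacts thus rested on more reads and had lower ratios to the caller's model. A pair with a low expected count needs a higher ratio to pass the list's false discovery rate, so the 2 median ratios are not compared at equal counts. The part of this selection in the difference was not tested. The false discovery rate was under 1e-06 for 6192 of the near contacts (93.5%).

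Most near contacts belonged to groups of adjacent bin pairs. They fell in 2726 clusters, and 560 (8.46%) were alone in theirs, against 10.9% of the whole list. The authors' mark for the summit of a cluster was carried by 1412 of the contacts (21.3%), against 24.6% of the whole list. Together they held 1168384 observed counts, 9.43% of those in the list. Chromosome 11 had the most per Mb (4.27) and chromosome 14 the fewest (1.55). The list held the autosomes, so genes of the X chromosome were not analysed here.

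Upstream and downstream contacts differed in number, whereas the ratios of those listed were alike. Of the 6097 contacts at promoter bins with TSSs on 1 strand, 74.7% lay upstream (73.6 to 75.8%), and the share ranged from 67.1% on chromosome 3 to 83.6% on chromosome 15. Median counts were 155 upstream and 127 downstream, and the median distances were 25 and 30 kb. The median ratios were 2.51 and 2.49, and ratios of at least 4 made up 5.62% and 6.62%. These ratios were taken among pairs that had passed the lowest listed ratio, 2, which holds the medians near that limit. They do not compare the strength of all pairs on the 2 sides. At the same distance the counts were alike, with medians of 270 upstream and 278 downstream at 10 kb and of 87 and 86 at 50 kb.

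**Figure D1:**
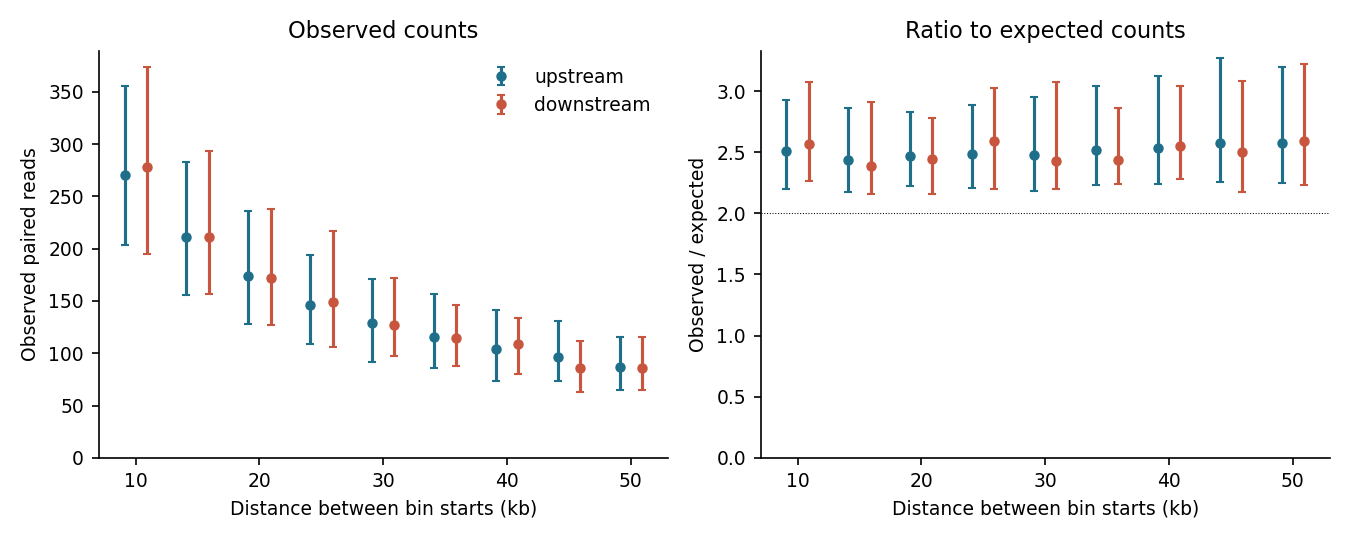
Observed counts of paired reads (left) and ratio of observed to expected counts (right) of the near intergenic contacts by distance between bin starts in kb, upstream (blue) and downstream (red) of the gene. Points are medians and bars the quartiles over contacts, and the dotted line is the lowest listed ratio, 2. Upstream counts fall from a median of 270 at 10 kb to 87 at 50 kb while the median ratios stay between 2.39 and 2.60 on both sides.

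The larger number upstream has to be read against the DNA available on that side, because the gene itself usually fills the first bins downstream. Bins were called eligible where they lay 10 to 50 kb from a promoter bin that had at least 1 listed interaction of any kind, held no protein-coding TSS and overlapped no gene body. There were 46772 eligible positions upstream and 21459 downstream. The list held 9.74% of the upstream positions (9.48 to 10.0%; mean of the autosomes 9.76 ± 1.02, SD, n = 19) and 7.18% of the downstream ones (6.84 to 7.53%; 7.24 ± 1.77). Per eligible position the excess upstream was thus 2.57 percentage points, and it was seen on 16 of 19 autosomes, with chromosomes 3, 14 and 18 going the other way. Its mean over the autosomes, 2.52, was close to its SD of 2.27. With both sides weighted to the same distances the excess was 1.94 points (mean 1.87 ± 2.46, 15 of 19 autosomes).

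Both shares were highest nearest to the promoter. At 10 kb, 16.5% of eligible upstream bins were listed (15.6 to 17.4%) and 11.8% of downstream bins (10.0 to 13.8%), and at 50 kb 8.06% and 6.28%. From 20 kb on, the upstream share stayed between 7.87% and 8.65%. Downstream bins within the gene's own body were listed at 13.6% of eligible positions overall and 19% at 10 kb, above intergenic bins on either side. Own-body bins upstream of a TSS, as at genes with alternative promoters, were listed at 5.77% (5.23 to 6.36%), below intergenic bins on either side. Bins within the body of another gene were listed at 7.85% upstream and 6.88% downstream. These shares describe the list and not physical contact, since positions absent from it include those the caller did not test.

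**Figure D2:**
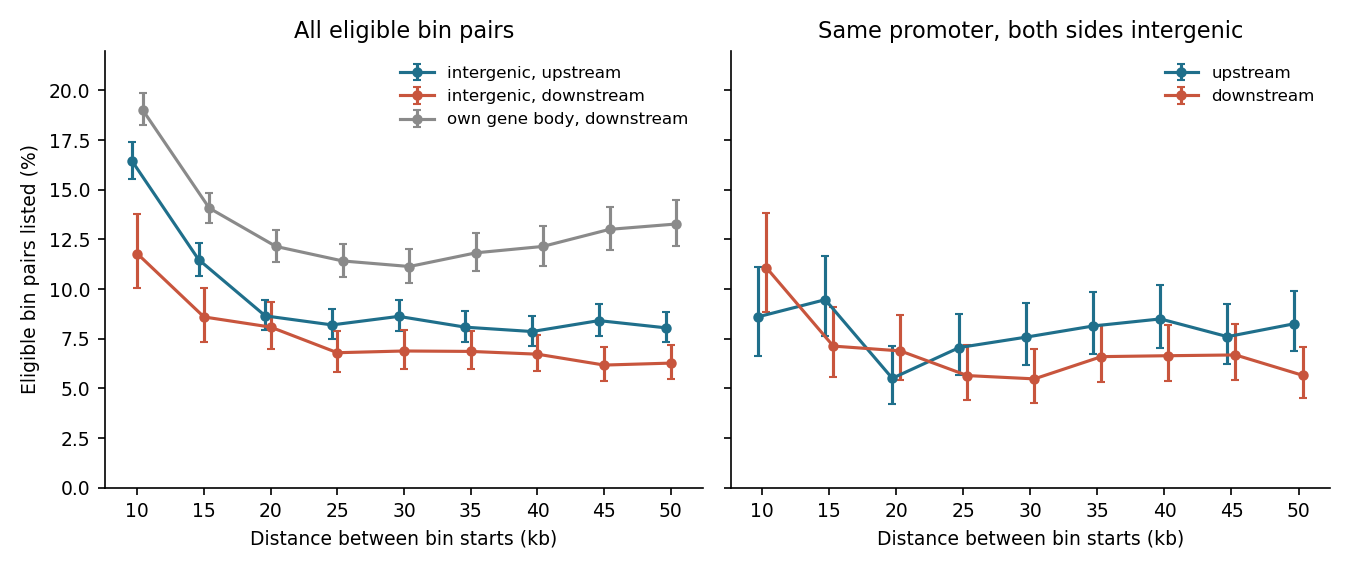
Percentage of eligible bin pairs that were listed, by distance between bin starts in kb. Left, intergenic bins upstream (blue) and downstream (red) and bins in the gene's own body downstream (grey); right, the subset of promoters and distances at which the bins on both sides were intergenic. Bars are 95% Wilson intervals for counting error. At 10 kb, 16.5% upstream, 11.8% downstream and 19% of own-gene bins are listed on the left, whereas on the right the order is 8.61% upstream and 11.1% downstream.

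Comparing the sides of the same promoter reduced the difference. At 9337 positions of 3168 promoter bins, the bins at equal distance on both sides were intergenic. Of these, 179 were listed on both sides, 552 upstream alone and 439 downstream alone, which gave 7.83% upstream and 6.62% downstream. The difference of 1.21 points had a mean over the autosomes of 0.946 with an SD of 2.78 and was positive on 13 of 19, so it was smaller than the spread between chromosomes. Upstream led at 7 of the 9 distances and downstream at 10 and 20 kb. At 10 kb 29 positions were listed upstream alone and 44 downstream alone, at 15 kb 53 and 34, at 20 kb 34 and 47, and at 50 kb 87 and 54.

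The upstream share was highest opposite the gene's own body. Where the mirrored downstream bin lay in the gene's own body (24541 positions), 11.5% of upstream intergenic bins were listed (11.1 to 11.9%), against 7.83% where it was intergenic (7.30 to 8.39%) and 7.70% where it lay in another gene. Where it held a TSS or lay beyond the chromosome end the share was 8.02% (7.23 to 8.89%). These pooled shares were not weighted to the same distances. Of the positions opposite the own body 4841 lay at 10 kb, against 604 of the 9337 opposite intergenic bins. At 10 kb the 4 shares were 18%, 8.61%, 11.7% and 13%, in the same order. At 40 kb they were 8.61% (7.44 to 9.95%), 8.50% (7.05 to 10.2%), 6.70% and 6.43%, so the first 2 hardly differed there. Opposite the gene's own body the mirrored body bin was listed more often still, at 15.2%, and on none of the 19 autosomes was the upstream share the higher one (mean difference -3.66 ± 1.98 points, SD). Both bins were listed at 1266 of these positions, the upstream bin alone at 1554 and the body bin alone at 2462. Gene length, expression level and the width of the H3K4me3 peak were not measured here, and their part in these shares was not tested.

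Few promoters had many near intergenic contacts. An upstream contact was found at 2162 of 9236 promoter bins with eligible bins on that side (23.4%, 22.6 to 24.3%) and a downstream contact at 899 of 5935 (15.1%, 14.3 to 16.1%). A single contact was listed at 1150 of the former and 578 of the latter, and at least 5 contacts at 214 and 40. All 9 positions from 10 to 50 kb were listed upstream of 15 promoter bins and downstream of 1. Of the 4492 promoter bins with eligible bins on both sides, 355 had contacts on both, 607 upstream alone and 314 downstream alone. In all, 2954 promoter bins and 3155 genes had at least 1 near intergenic contact, 15.2% of 20696 protein-coding gene symbols. Among the 2872 of these bins with at least 2 listed pairs, a near intergenic contact had the highest count in 41.9% and the highest ratio in 5.78%.

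The upstream contacts with the most reads lay 10 to 20 kb from the TSSs of Junb, Mpzl1, Ppp1r9b, Lmna, BC005537 and Lrp12. Junb, a subunit of AP-1 on chromosome 8, had the highest count of all, 1051 (exact Poisson 95% interval 988 to 1117) at a bin 10 kb upstream, though its ratio was 2.54. The same bin was also a partner of the promoters of Asna1/Trir and of Gm49661/Prdx2/Rnaseh2a, where slashes join genes whose TSSs share a bin. Ppp1r9b, which encodes the actin-binding scaffold spinophilin, had 986 counts at 10 kb and a ratio of 5.86 (5.50 to 6.23), and that bin was its single near contact. Lmna, the gene of the nuclear lamins A and C, had 928 counts at 10 kb (ratio 4.60, 4.31 to 4.91). Another promoter bin of Lmna reached the same partner bin over 20 kb with 230 counts. High counts did not imply high ratios, since Mpzl1, a cell surface glycoprotein gene, had 1010 counts and a ratio of 2.07.

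The highest upstream ratio, 8.48 (7.18 to 9.95), was that of the open reading frame gene 0610010F05Rik, with 150 counts at 10 kb. The next ones above 100 counts belonged to Hnrnpll, Ezr and Ggta1 and spanned 40 or 50 kb. Hnrnpll, a splicing regulator gene on chromosome 17, was listed with all 9 upstream positions, with 138 to 694 counts. Its ratio was 4.64 at 10 kb, 5.64 at 20 kb and 7.83 (7.04 to 8.68) at 50 kb, and it was 2.37 to 2.38 at 15 and 25 kb. The pattern of Hnrnpll was therefore uneven between adjacent bins and highest at the far end. Ezr, which encodes ezrin, a linker of membrane and actin, was listed with 8 of 9 upstream positions and missed only the bin at 15 kb. The ratio at Ezr peaked at 40 kb, with 353 counts (7.06, 6.34 to 7.84), between 3.24 at 35 kb and 3.79 at 45 kb. Ggta1, the alpha-1,3-galactosyltransferase gene, also had its peak at 40 kb, with 390 counts and a ratio of 6.94 (6.27 to 7.67). All 9 upstream bins of 1 Ggta1 promoter bin were listed, with 129 to 439 counts, and the ratio at 10 kb was 2.46. The bin of the Ggta1 peak held the start of the non-coding gene Gm35202.

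Downstream, Txnip, Tob2, Tesk1 and Pcbp1 were among the genes with the highest counts and ratios. Txnip, which encodes a thioredoxin-binding inhibitor of glucose uptake, had 687 counts at 10 kb (ratio 4.44) and 738 at 15 kb (6.54, 6.08 to 7.03). Upstream Txnip had 1 contact, 284 counts at 15 kb with a ratio of 2.01. At the equal distance of 15 kb the Poisson intervals of the counts were 686 to 793 and 252 to 319. Txnip was named for its high downstream counts, so these intervals do not test a difference between the sides. Tob2, an antiproliferative gene, had 702 counts 25 kb downstream (ratio 6.12, 5.67 to 6.59) and 565 at 15 kb. Tesk1, a kinase gene of actin regulation, had 547 counts at 35 kb (7.63, 7.01 to 8.30).

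Pcbp1, an intronless gene of an RNA-binding protein, gave the highest ratio among all the near contacts. At 50 kb downstream it had 456 counts against 40.1 expected, a ratio of 11.4 (10.3 to 12.5), and the neighbouring bin at 45 kb had 277 counts and a ratio of 6.06. Of its 9 downstream positions 8 were listed, with ratios of 4.10 to 11.4, and 3 of its 9 upstream ones, with ratios of 2.20 to 2.71. Every listed downstream ratio of Pcbp1 thus lay above every listed upstream one, in a gene that was named for its downstream ratio. Some other high ratios rested on few reads or on gene families with near-identical copies. Raet1d, an NKG2D ligand gene with close paralogs, had a ratio of 7.81 from 9 counts (3.57 to 14.8).

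S100a10, whose product binds annexin A2 at the membrane, was alone in having all 9 downstream positions listed. Its counts were 241, 212, 127, 149, 123, 99, 142, 155 and 124 from 10 to 50 kb, and its ratio was 2.34 (2.05 to 2.65) at 10 kb and 5.25 (4.37 to 6.26) at 50 kb. Counts of S100a10 changed little beyond 20 kb while the expected count fell from 103.2 at 10 kb to 23.6 at 50 kb. Upstream, 1 of 7 eligible S100a10 positions was listed, with 111 counts at 25 kb.

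Jun, Ier5 and Bhlhe40 also stood among the genes with the most downstream contacts. Jun, a subunit of AP-1, had 7 of 9 positions listed on each side. Its upstream ratio was 2.09 at 10 kb and 6.33 (5.70 to 7.01) at 50 kb, and the bins at 40 and 45 kb held starts of the antisense gene Junos. Its downstream ratios stayed between 2.16 and 3.36. Ier5, an immediate-early gene of the heat shock response, had 8 of 9 positions downstream and all of its 4 eligible positions upstream. The highest ratio of Ier5 was 7.35 (6.72 to 8.01) at 45 kb downstream, with 511 counts. Bhlhe40, a transcriptional repressor gene, had 8 of 9 downstream and 5 of 9 upstream.

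**Figure D3:**
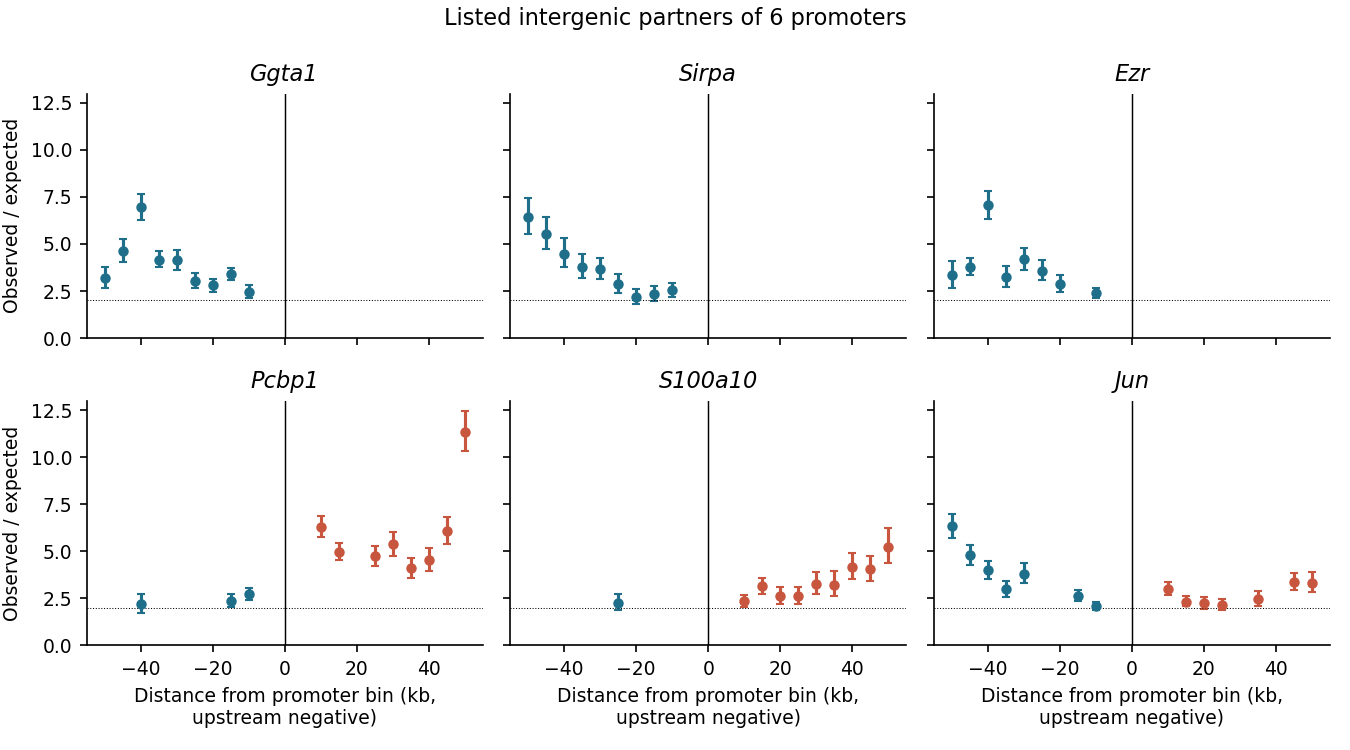
Ratio of observed to expected counts of the listed intergenic partners of 6 promoters against distance from the promoter bin in kb, negative upstream (blue) and positive downstream (red). Bars are exact Poisson 95% intervals of the observed count divided by the expected count, the dotted line is the lowest listed ratio, 2, and positions without a point are either not listed or not intergenic. Ggta1 and Ezr peak 40 kb upstream at 6.94 and 7.06, Sirpa is highest at 50 kb upstream, Pcbp1 and S100a10 are highest at 50 kb downstream, at 11.4 and 5.25, and Jun has points on both sides and is highest at 50 kb upstream, at 6.33.

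Of 30 genes of macrophage identity, 13 had at least 1 near intergenic contact (43.3%, 27.4 to 60.8%), beside 15.2% of all symbols. Among genes with any listed interaction the shares were 46.4% of 28 in this list and 24.1% of 13081 in all. Sirpa, the inhibitory receptor that reads CD47, had all 9 upstream positions listed. The counts at Sirpa lay between 118 and 180 without a steady fall, whereas its ratio was 2.54 at 10 kb, 2.17 at 20 kb and 6.43 (5.51 to 7.45) at 50 kb. Spi1, the gene of PU.1, had its single eligible upstream bin listed at 20 kb with 456 counts (ratio 3.84, 3.49 to 4.20). Adgre1, the gene of the F4/80 antigen, had all 4 of its eligible upstream bins listed, with 251, 291, 382 and 201 counts from 10 to 25 kb. Csf1r, the M-CSF receptor gene, had both eligible upstream bins listed, and Cd14, a lipopolysaccharide co-receptor gene, all 4 downstream ones. Maf, a transcription factor gene, had the highest count of the list, 487 at 10 kb upstream with a ratio of 2.57.

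Genes of IL-4 signalling and its collaborating factors were contacted at 14 of 28 (50%, 32.6 to 67.4%), beside 15.2% of all genes. All 28 had a listed interaction, so the value to set beside them among such genes is 24.1%, and the housekeeping list below reached the same 50%. Il4ra, the IL-4 receptor alpha chain gene, had 6 of 9 upstream positions listed. The ratio at Il4ra was 2.51 at 10 kb and 5.52 (4.79 to 6.34) at 50 kb, where 204 counts were observed. Jak1, the receptor-bound kinase gene, had 7 of 9 upstream positions. Cish, a STAT-induced inhibitor gene, had all 4 eligible downstream bins and its single upstream bin listed, with 466 counts at 10 kb downstream (ratio 4.34) and 174 at 50 kb upstream (4.01). Socs3, another inhibitor of cytokine signalling, had 6 of 9 downstream and none of 2 upstream. Stat6, the transcription factor that IL-4 activates, had none of its 2 eligible upstream bins listed.

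Of 29 genes that IL-4 is known to induce, 8 had at least 1 near intergenic contact (27.6%, 14.7 to 45.7%), an interval that includes the 15.2% of all genes. Among the 22 with any listed interaction the share was 36.4%, beside 24.1% of all such genes. Arg1, the arginase that marks IL-4-treated macrophages, had 39 counts at 10 kb upstream (ratio 2.27, 1.61 to 3.10) and 108 at 15 kb (3.17, 2.60 to 3.83), and no other of its 9 upstream bins was listed. Slc7a2, which imports the arginine that arginase uses, had 181 counts at 15 kb, 120 at 30 kb and 25 at 50 kb upstream, with ratios of 2.10, 2.22 and 3.08. The interval of the last, 1.99 to 4.55, includes both others. Ptgs1, the cyclooxygenase-1 gene, had the second highest count of this list, 280 at 15 kb upstream with a ratio of 3.87. Outside this list, Ripk2, an NF-kB-activating kinase gene that the study discusses, had 2 upstream contacts and 1 downstream, with ratios of 2.29 to 2.59.

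Several genes that the study discusses had no near intergenic contact. Absence was the more common outcome, since a near contact was found for 24.1% of all genes with any listed interaction. Egr2, a transcription factor gene induced by IL-4, had 9 eligible bins upstream and 8 downstream, and Klf4 had 9 on each side, none of them listed. For Egr2 the paper describes strong HiChIP connections of the promoter with super enhancers upstream. The Egr2 promoter bin had 7 listed pairs of other kinds, which were not compared with those enhancers here. Pparg, the lipid-sensing receptor gene, had none of 9 upstream bins listed, and Mmp12, a macrophage elastase gene, none of 18 upstream and 3 downstream. Each of these 4 had other listed interactions. Btbd11 and Cd36 had no listed interaction of any kind at their promoter bins, so no position was eligible. Msx3 and Treml2 also lacked near contacts. Absence from the list does not show absence of contact.

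Among inflammatory genes 13 of 30 (43.3%) had a near contact, and 50% of the 26 with any listed interaction, beside 15.2% and 24.1% of all genes. Tnf, the tumour necrosis factor gene, had 558 counts at 10 kb and 776 at 15 kb upstream (ratios 3.93 and 4.59), which were both of its eligible upstream bins. The bin at 15 kb was also contacted by the promoters of Aif1 and H2-D1. Tnfaip3, an inhibitor of NF-kB signalling, had 390 counts 50 kb upstream of 1 of its promoter bins (ratio 4.43). Cytoskeleton and motility genes were contacted at 11 of 23 (47.8%; 50% of those with any listed interaction), led by Actb, the beta-actin gene, with 529 counts at 20 kb, and by Arpc2, a subunit of the actin-branching Arp2/3 complex, with 385 at 20 kb upstream. In the lysosome and lipid list 8 of 26 (30.8%, 16.5 to 50%) had a contact, or 36.4% of the 22 with any listed interaction, led by Nr1h2, the LXR-beta gene, with 425 counts, and Ctss, the cathepsin S gene, with 338.

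Housekeeping genes had near intergenic contacts in 13 of 26 (50%, 32.1 to 67.9%), beside 15.2% of all genes, with 613 counts 10 kb upstream of Ldha, the lactate dehydrogenase A gene, and 557 of Hspa8, a constitutive chaperone gene. At housekeeping genes 31.0% of eligible upstream positions were listed, at cytoskeleton genes 28.0%, at IL-4 signalling genes 20.5%, at macrophage identity genes 19.1% and at genes of other blood lineages 17.6%, against 9.80% when positions were counted for every gene. Inflammatory genes had 11.5%, lysosome and lipid genes 11%, IL-4-responsive genes 7.10% and genes of other tissues 1.08%. Downstream, where the value for every gene was 7.12%, the shares were 19.6% for IL-4 signalling, 11.6% for macrophage identity, 11.1% for both IL-4-responsive and housekeeping genes and 10.7% for inflammatory genes. They were 4.76% for cytoskeleton genes and 2.56% for lysosome and lipid genes, and none of the 30 and 51 downstream positions of other blood and other tissue genes was listed. Shares of positions on both sides can rest on few genes, since positions of 1 promoter are not independent. The 22 listed downstream positions of IL-4 signalling belonged to 6 genes, with 7 at Jun, 6 at Socs3, 4 at Cish and 3 at Egr1. Of 28 genes of other blood lineages 5 were contacted (17.9%, beside 15.2% of all genes), which was 35.7% of the 14 with any listed interaction, beside 24.1%. They were led by Blnk, a B cell adaptor gene, with 409 counts, and Lck, a T cell kinase gene, with 317. The Lck partner bin was shared with Hdac1, Eif3i/Tmem234, Dcdc2b and Ccdc28b. Of 29 genes of other tissues and development 1 was contacted (3.45%, 0.611 to 17.2%; 6.67% of the 15 with any listed interaction), which was Nkx6-1 with 70 counts and a ratio of 2.21. The lists were chosen with earlier results of these data known, and no test of enrichment was made.

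**Figure D4:**
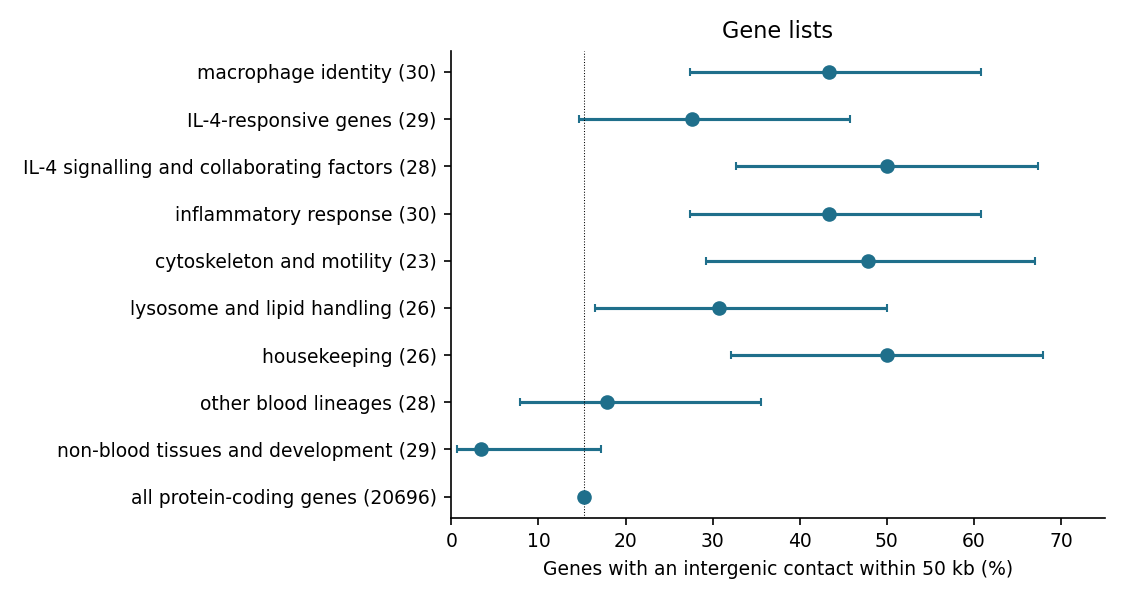
Percentage of the genes of each list with at least 1 near intergenic contact, with the number of annotated genes in parentheses. Bars are 95% Wilson intervals and the dotted line is the value for all protein-coding genes, 15.2%. The macrophage, IL-4 signalling, inflammatory, cytoskeleton, lysosome and housekeeping lists have intervals above the line, the IL-4-responsive and other blood lists have intervals that include it, and so has the list of other tissues at 3.45%.

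Most intergenic partners belonged to 1 promoter. Of 5890 partner bins, 5250 were contacted by 1 promoter bin within 50 kb, 565 by 2, 63 by 3 and 12 by at least 4. The bin with the most, 7, was chr8:3645001-3650000, which lay among Retn, the resistin gene, Mcemp1, Trappc5, Stxbp2, Pcp2, Fcor and Pet100/Xab2. For 1465 partner bins (24.9%) the near contact was the only listed pair of any kind, and the median was 3 listed pairs. A shared bin can join neighbouring genes with unlike expression, and these values do not say which of them is affected.

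Partner bins were next to a protein-coding gene somewhat more often than unlisted intergenic bins at the same distances and on the same side. That gene could be the contacted one or another. In the comparisons of listed with unlisted bins here and below, a bin counted once for each pair it was in, with 6097 listed pairs here. A protein-coding gene body lay in a neighbouring bin for 30.8% of them against 26.4%, an excess on 17 of 19 autosomes with a mean of 4.40 ± 3.20 points (SD). A protein-coding TSS lay in a neighbouring bin for 17.4% against 15% (2.22 ± 2.45, 15 of 19 autosomes). Downstream this share was 23.8% against 18.5% (6.20 ± 5.11, 17 of 19), and upstream 15.2% against 13.9% (1.02 ± 2.83, 11 of 19), which was within its spread. Without such bins, 9.69% of eligible upstream and 6.83% of downstream positions were listed. Starts of non-coding genes were in 5.48% of listed and 4.46% of unlisted bins, a difference of 0.976 ± 1.47 points over the autosomes that was smaller than its spread. For long non-coding RNAs alone the shares were 3.84% and 3.12%.

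The base composition of partner bins differed little from that of unlisted bins nearby. Mean GC content was 44.7% against 44.2%, higher on 17 of 19 autosomes (0.518 ± 0.392 points), and both were above the 41.9% of all bins and the 40.9% of all intergenic bins. CpG dinucleotides numbered 48.8 per bin against 48.3 (0.544 ± 1.49). Being close to a promoter with listed interactions thus went with a larger shift in GC content than being listed.

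RUNX and AP-1 letters were the motifs with the largest excess in listed bins. Over 6094 listed pairs, 78.1% of the partner bins held AACCACA, against 75.1% of unlisted bins at the same distance and side. The mean difference was 2.99 ± 2.47 points (SD), with an excess on 16 of 19 autosomes. In bands of equal GC content the difference was 2.70 points, and among the unlisted bins of the same promoters 2.20, where the SD of 3.73 exceeded it. AP-1 letters were in 80.7% against 78.3% (2.83 ± 3.38, 16 of 19) and PU.1 letters in 31.6% against 29.6% (1.88 ± 2.34, 15 of 19), so that both differences were within 1 SD. RUNX was the only one of 12 motifs whose mean exceeded its SD in this comparison. The SD is the spread between autosomes and not the error of the mean, so a mean within it does not show the absence of an excess.

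For the remaining motifs the mean difference between listed and unlisted bins was also within 1 SD over the autosomes. C/EBP letters (TTGCNNAA) were in 85.5% against 87.2% and STAT6 letters in 72.8% against 74.6%, with mean differences of -1.57 ± 2.42 and -1.65 ± 3.39 points. The direct repeat of PPARG and RXR (2 copies of AGGNCA with any base between them) was in 11.0% against 9.74%, NF-kB letters (GGGANTTCC) in 15.9% against 15.1%, and IRF letters (2 copies of GAAA with any 2 bases between them) in 52.9% against 53.9%. MITF and TFE letters (GTCACGTG) were in 6.48% against 5.83% and EGR letters (GCGTGGGCG) in 0.394% against 0.308%. The KLF and SP letters (GGGCGGG) were in 26.2% against 25.3% but turned to -0.359 points in equal GC bands and -0.847 among the same promoters, and the pooled IRF difference of -0.972 was 0.0690 in GC bands, where its mean over the autosomes stayed below 0 at -0.632. The CTCF core was in 2.79% against 2.94%. Over all bins of the genome these 8 motifs from C/EBP to CTCF, without STAT6, occurred in 90.3% (C/EBP), 6.90% (PPARG and RXR), 12.1% (NF-kB), 57.2% (IRF), 4.87% (MITF and TFE), 0.340% (EGR), 19.6% (KLF and SP) and 1.28% (CTCF). No motif contains the letters of another, although matches can overlap.

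**Figure D5:**
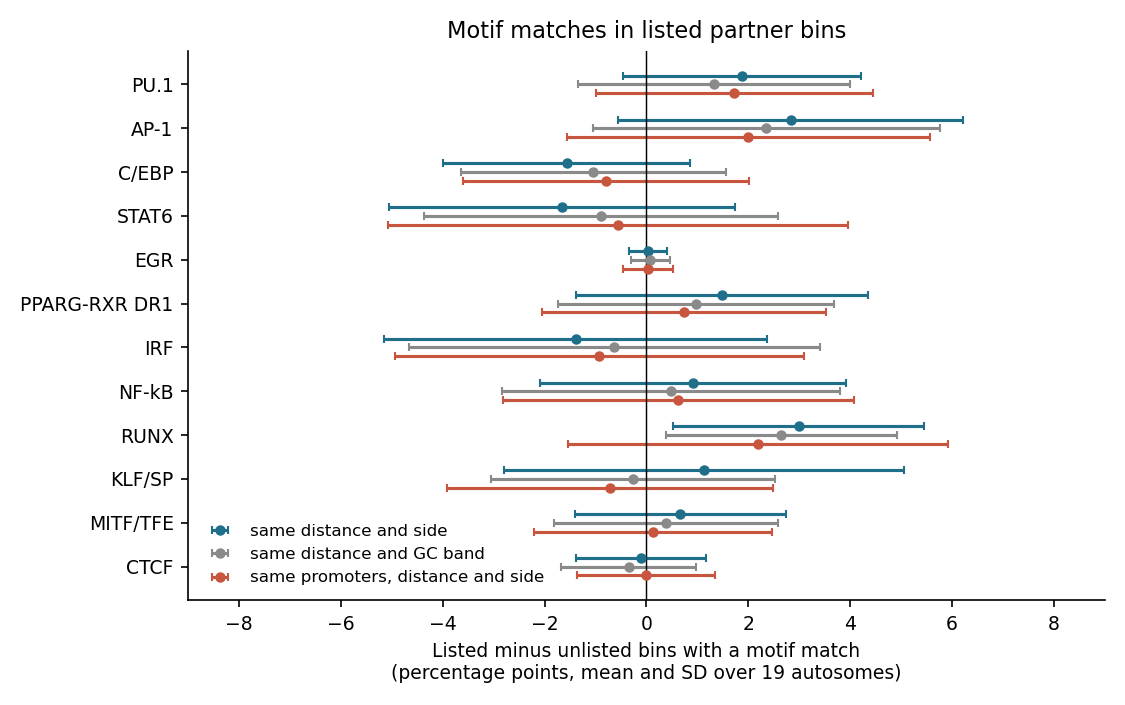
Difference in the percentage of bins with a motif match, listed minus unlisted intergenic bins, in percentage points. Points are means and bars SDs over the 19 autosomes, for unlisted bins at the same distance and side (blue), in the same GC band (grey) and of the same promoters (red). RUNX, at 2.99 ± 2.47, is the only motif whose blue bar does not cross 0, and the bars show spread between autosomes, not the error of the mean.

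Partner bins of the named genes differed in their motif content. The Lmna partner held 2 PU.1, 2 AP-1 and 3 RUNX matches and 6 of the KLF and SP letters, whereas the Ggta1 bin of the highest ratio held 1 AP-1 match, 1 KLF and SP match and none of the other 10 motifs. The Pcbp1 bin had 1 AP-1, 2 C/EBP and 3 STAT6 matches and no PU.1 or RUNX match. The Ezr bin had 3 AP-1, 3 C/EBP and 3 RUNX matches. The Junb bin had 6 AP-1 matches. The Arg1 bin at 15 kb held 2 AP-1, 2 C/EBP and 2 STAT6 matches, and the bin at 10 kb 1, 3 and 1. The Spi1 bin held 2 RUNX matches and no PU.1 or AP-1 match. Matches of AP-1, PU.1 and RUNX were thus each missing from some of these bins.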

How the data were processed

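H3K4me3 HiChIP was performed on 2 basal and 2 IL-4-treated samples of C57BL/6J BMDMs, grouped by their titles, with MboI digestion and 75-bp paired-end reads. The submitters' notes name Bowtie2, bedtools and mm10, and the methods of the study state that the authors used MAPS at 5-kb resolution with H3K4me3 ChIP-seq peaks as reference. Only the list called on all 4 samples merged was used here. For each bin pair the authors deposited an observed count of paired reads, an expected count (a model signal, not whole reads), a false discovery rate (an adjusted p-value, all under 0.01), and the label, size and summit of each cluster of bin pairs. All were used as deposited. No value per sample was used, so depth per sample is unknown and no test between conditions was made. The total of observed counts covers significant pairs and is not a depth.

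The authors' summed cluster significance was not used. Promoters and gene bodies were taken from the protein-coding genes of the basic GENCODE M21 annotation, with genes counted by symbol. Distances are between bin starts, and positions count from 1 in mm10. Contacts at promoter bins with TSSs on both strands have no upstream side and were left out of the shares of eligible positions. Unlisted bins were weighted to the distances and sides of listed ones, and a bin counted once for each pair it was in. Bins with fewer than 4500 known bases were left out of the motif and GC comparisons, and GC bands were 2% wide. Motifs were fixed letter patterns searched on both strands in the GRCm38 sequence of the same coordinates. Values are given with 95% Wilson intervals for shares and exact Poisson intervals for counts, which cover counting error only, and with the mean and SD over 19 autosomes. No p-value was computed. The members, gene lists and motifs were chosen with earlier results of these data known. Genes named were, on each side, the 6 contacts of highest count and 6 of highest ratio, the 6 genes with the most contacts, the 2 leading members of each list and 13 genes the study discusses, not all of which are described. Other list members, and the Ggta1 and Sirpa profiles, were named after their values were seen. The listed shares and the side labels were tested on simulated lists with known shares on each side. The weighting by distance was not tested in this way. Values were computed with pandas 2.3.3, scipy 1.17.1, numpy 2.4.6 and pysam 0.24.0 in Python 3.11.15 and plotted with matplotlib 3.10.9.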

Additional observations from a re-analysis of the deposited data

How the results depend on the processing

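Among the comparisons of sides, the upstream listed share stayed above the downstream one under every alternative run, and the signs that turned were those of the pooled IRF and the KLF and SP motif differences, within their SD over the autosomes. With TSSs within 2500 bp of a bin counted, 77.1% of contacts lay upstream, and 7.02% of upstream and 4.80% of downstream positions were listed. With partner bins at least 5000 bp from gene bodies the upstream share of contacts was 82.3% and the downstream listed share 6.03%. A limit of 25 kb gave 3385 contacts, 80.9% upstream, with listed shares of 11.4% and 8.37%. A limit of 100 kb gave 13270, 69.2% upstream, with 8.96% and 6.47% and a median ratio of 2.59. A false discovery rate under 1e-06 gave 9.13% and 6.60%. A ratio of at least 4 left 389 contacts, 71.5% upstream, with 0.547% and 0.475%, a difference of 0.0720 points. Summits alone numbered 1412, 77.6% upstream, with 2.23% and 1.40% and a median ratio of 2.57. All promoter bins in the denominator gave 4.76% and 2.97%. Long non-coding RNAs alone gave 3.84% of partner bins, counted once per pair, with a non-coding start. The cause of these shifts was not tested, except that a stricter ratio, false discovery rate or summit rule leaves fewer contacts by construction. The comparison within the same promoters, the weighting by distance, the omission of bins next to promoters and the motif comparison within promoters were added after seeing the data. A median ratio among ratios of at least 4 was not computed. No paired analysis was possible because the list is pooled over replicates and conditions, and for the same reason leaving out a replicate was not run. Bins of 5 kb limit position, and contacts under 10 kb are not in the list.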
